A study of Bos taurus with 6 samples.

Results

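The related miRNAs bta-miR-28, bta-miR-151-5p, bta-miR-151-3p and bta-miR-708 were followed in small RNA libraries from the liver of steers of the closed Wye Angus herd. They were taken by exact name and make up 4 of the 1030 mature miRNAs listed for each of the 6 libraries. The grass-fed group held 3 animals that were 21 months old and ate alfalfa, hay or pasture grass, and the grain-fed group held 3 animals that were 14 months old and ate corn silage, shelled corn, soybean and minerals. Each animal gave 1 library, and diet cannot be told apart from age. All 4 miRNAs were found in every library, each under a single precursor row, and all 4 passed the detection rule of a count above 2 in at least 2 libraries, as did 456 of the 1030 listed miRNAs.

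MiRNAs are short RNAs that guide Argonaute proteins to partly matching sites in mRNAs, mostly through the seed near the 5′ end, and lower the output of those mRNAs. The hairpins of miR-28, miR-151 and miR-708 are related in sequence and are known in mammals as products of an old LINE-2 repeat. The miR-28 5p arm and miR-708 share a seed, whereas miR-151-5p carries the same stretch shifted along the molecule and so has another seed. Each hairpin lies within a protein-coding gene. By RefSeq's gene spans on ARS-UCD2.0, a newer build than that of the reads, the hairpin of bta-miR-28 lay inside LPP, an adaptor of focal adhesions, that of both miR-151 arms inside PTK2, the focal adhesion kinase, and that of bta-miR-708 inside TENM4, a teneurin of the cell surface. Each of these 3 host genes held 1 miRNA gene there. The spans come without exons, so the intronic position is background and was not checked here. In liver, miR-151 is best known from hepatocellular carcinoma, where it is studied with PTK2 in cell migration, and miR-708 is known as a miRNA induced with its host gene by endoplasmic reticulum stress.

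The forward primer that the study designed to amplify bta-miR-708 is shown because it carries the seed that joins 2 of the 4 miRNAs. The capitals mark the stretch AGGAGCT, which as background is the DNA form of the seed shared by the miR-28 5p arm and miR-708, bases 2 to 8 of the miRNA.
bta-miR-708 forward primer: gcgcgaAGGAGCTtacaatcta
The stretch fills positions 7 to 13 of the 22 bases of the primer, counted from its 5′ end. That bta-miR-28, named without an arm, is the 5p arm is also background and was not checked here. Related miRNAs can share reads where a short or mismatched read fits more than 1 of them, and how such reads were assigned cannot be seen in counts.

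The libraries differed in depth. Counts of mature miRNAs were 3824592 to 6133960 in the grass-fed and 464875 to 892929 in the grain-fed libraries, so a level of the same size rests on fewer counts in the grain-fed libraries. Depth split the libraries as diet did, so diet cannot be told apart from depth either. Levels are given as CPM, the count of a miRNA relative to all miRNA counts of its library, after scaling by the trimmed mean of M-values (TMM) of edgeR. Where 3 values follow each other for a diet, they are those of replicates 1, 2 and 3. A count of 0 would have allowed up to 0.787 CPM in the grass-fed and up to 5.32 CPM in the grain-fed libraries, taking 3 counts as the floor for counting error only, and every value of the 4 miRNAs is above these limits. The 4 hepatocyte miRNAs, bta-miR-122 and bta-miR-192 among them, together stood at 328202 to 820705 CPM in each library, so the markers of the labelled tissue were present. In bulk tissue, fewer cells of a type and less RNA per cell cannot be told apart.

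bta-miR-708 fell in grass-fed liver, and the other 3 miRNAs did not pass the test. Of the 4 miRNAs 1 was called, where 19.1% of the 456 tested miRNAs were called in either direction, 9.65% were called lower and 9.43% higher in grass-fed liver, so the share called is near that of all miRNAs. Over all tested miRNAs the median log2 fold change was 0.13, so values near it lie with the bulk of the miRNAs. The call is false discovery rate (FDR) below 0.1 in the quasi-likelihood test of edgeR with Benjamini-Hochberg adjustment over all tested miRNAs. The split of those calls depended on scaling, with 44 lower and 43 higher after TMM, 65 and 9 with total counts alone, and 42 and 82 with upper-quartile normalization.

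**Figure D1:**
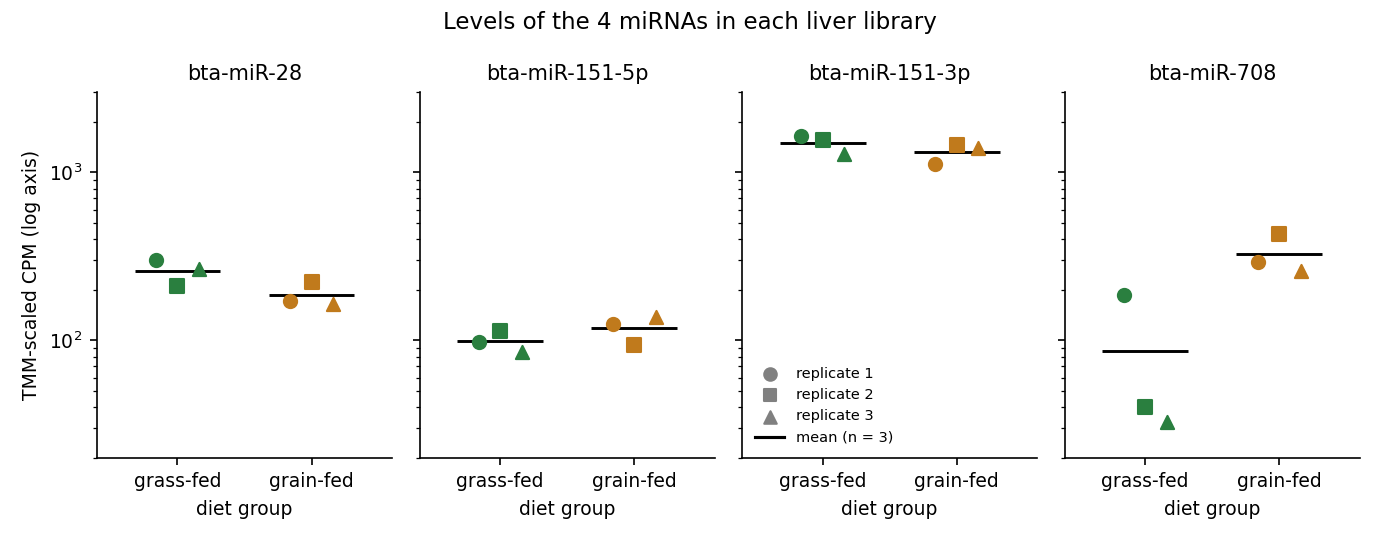
TMM-scaled CPM on a log axis for each of the 4 miRNAs, with 1 point per library, grass-fed in green and grain-fed in orange, the shape giving the replicate and the bar the mean of 3 libraries. The 3 grain-fed points of bta-miR-708 lie above its 3 grass-fed points, of which replicate 1 is the highest at 187 CPM, while the points of the other 3 miRNAs overlap between the diets.

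bta-miR-708 comes from TENM4 and shares its seed with the miR-28 5p arm. Its level was 187 CPM in grass-fed replicate 1, 40.3 CPM in replicate 2 and 32.5 CPM in replicate 3. In the grain-fed libraries it was 291 CPM in replicate 1, 426 CPM in replicate 2 and 257 CPM in replicate 3. The ranges of the diets did not overlap, as was the case for 32.9% of all tested miRNAs, and the lowest grain-fed level was 1.38 times the highest grass-fed level. The grass-fed mean was 86.5 ± 86.8 CPM and the grain-fed mean 325 ± 89.4 CPM (SD, n = 3 each). These values rest on 886, 171 and 124 grass-fed and on 299, 301 and 145 grain-fed counts, so the shallower libraries held more bta-miR-708 counts than grass-fed replicate 3. The log2 fold change was -1.90 with a 95% interval from -3.09 to -0.71 (FDR = 0.0324, edgeR). A two-sided exact permutation test over the libraries gave p = 0.1, the smallest that 3 against 3 allows.

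The bta-miR-708 difference was made smaller by grass-fed replicate 1, which stood between the other grass-fed libraries and the grain-fed libraries. Its level was 4.63 times that of replicate 2 and 5.73 times that of replicate 3. Without grass-fed replicate 1 the log2 fold change was -3.24 (FDR = 2.80e-04, edgeR). The call was lost without grass-fed replicate 2 (FDR = 0.165), without grass-fed replicate 3 (FDR = 0.131) or without grain-fed replicate 2 (FDR = 0.195), with the direction kept each time.

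The spread of bta-miR-708 between the grass-fed animals was larger than that of the other 3 miRNAs. The SD of its log2 CPM was 1.36 over the grass-fed and 0.38 over the grain-fed libraries. Of the 313 tested miRNAs whose mean count reached 10, only 3 had a larger SD over the grass-fed libraries, and the median SD was 0.30. In the grain-fed libraries 133 of the 313 had a larger SD than bta-miR-708. No other miRNA of these 313 was at least 4-fold higher in grass-fed replicate 1 than in both other grass-fed libraries. None was at least 4-fold lower there, a comparison chosen after the values were seen. Such miRNAs occurred in the other libraries too. Counted in the same way, grass-fed replicate 2 had 1 higher and 4 lower, and grass-fed replicate 3 had 0 and 1. Grain-fed replicates 1, 2 and 3 had 2 and 0, 0 and 4, and 1 and 8.

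**Figure D2:**
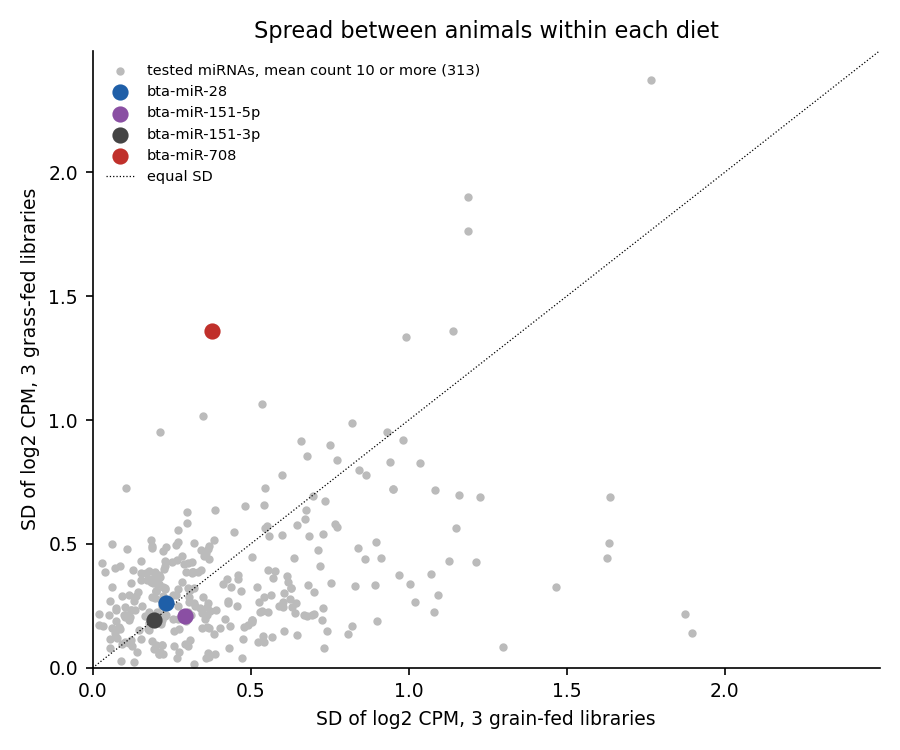
SD of log2 CPM over the 3 grass-fed libraries against the SD over the 3 grain-fed libraries, with 1 point for each of the 313 tested miRNAs whose mean count reached 10 and a dotted line at equal SD. bta-miR-708, at 1.36 and 0.38, lies far above the line, and the other 3 miRNAs lie among the bulk of the points.

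Markers of leukocytes were set beside bta-miR-708. The summed level of the 7 leukocyte miRNAs was 2001, 1795 and 1359 CPM in the grass-fed animals and 2365, 2131 and 2541 CPM in the grain-fed animals. The diets did not overlap in this sum, as for 32.9% of all tested miRNAs singly, and grass-fed replicate 1 was the highest of the grass-fed libraries. The sum of the endothelial miRNAs was highest there too, at 16152 CPM. Its ranges overlapped between the diets, with grain-fed replicates 2 and 3 (12602 and 14335 CPM) above grass-fed replicate 2 (11449 CPM). Among the grass-fed libraries, the pancreas sum was also highest in replicate 1. The hepatocyte, mesenchymal, erythroid, biliary and skeletal muscle sums were highest in replicate 2. Of the leukocyte miRNAs, bta-miR-146a was also highest in grass-fed replicate 1, with 786, 580 and 433 CPM over the grass-fed replicates. The place of replicate 1 at the top of the leukocyte sum rests on bta-miR-146a. This miRNA is also among the 3 most correlated with bta-miR-708 (r = 0.91), so its likeness was chosen from these same values. bta-miR-146b was highest in grass-fed replicate 2 (257 CPM, against 222 CPM in replicate 1). All 7 were tested, none was at 0, and 2 of them, bta-miR-146a and bta-miR-146b, which dampen Toll-like receptor and NF-κB signalling, passed FDR 0.1 as lower in edgeR, with log2 fold changes of -0.67 and -0.76, against 9.65% called lower and 19.1% called in either direction over all tested miRNAs. The other 5 did not pass, and their log2 fold changes ran from -0.98 to 0.40, the value above 0 being that of bta-miR-155, which was named after its values were seen. The part of these markers in the bta-miR-708 difference was not tested.

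bta-miR-28, from LPP, is known from B cells, where it acts against growth. Its level was 301 CPM in grass-fed replicate 1, 210.2 CPM in replicate 2 and 265 CPM in replicate 3. In the grain-fed libraries it was 172, 222 and 165 CPM. The ranges overlapped, because grain-fed replicate 2 lay above grass-fed replicate 2. The means were 259 ± 45.8 CPM and 187 ± 31.2 CPM (SD, n = 3 each). The fitted log2 difference was 0.47 with a 95% interval from -0.04 to 0.99 (FDR = 0.225, edgeR). With total counts alone the log2 fold change was 0.10 (FDR = 0.887, edgeR), in a setting where the median of all miRNAs was -0.29.

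bta-miR-151-3p was the most abundant of the 4 in every library. Its level was 1646, 1565 and 1280.1 CPM in the grass-fed animals and 1126, 1446 and 1389 CPM in the grain-fed animals. It ranked between 39 and 48 among the 456 tested miRNAs in each library. The means of 1497 ± 192 CPM and 1320.3 ± 171 CPM (SD, n = 3 each) differed by 0.18 on the log2 scale with a 95% interval from -0.27 to 0.63 (FDR = 0.657, edgeR). The direction turned to -0.23 with total counts alone (FDR = 0.568, edgeR), as the median of all miRNAs moved from 0.13 to -0.29. Relative to that median the value was 0.05 under both scalings.

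bta-miR-151-5p is the other arm of the same hairpin. Its level was 97.7, 114 and 85.0 CPM in the grass-fed animals and 126, 93.5 and 138 CPM in the grain-fed animals. The ranges overlapped, with grain-fed replicate 2 below 2 of the 3 grass-fed libraries. The means were 98.9 ± 14.4 CPM and 119 ± 23.2 CPM (SD, n = 3 each). The fitted log2 difference was -0.27 with a 95% interval from -0.80 to 0.27 (FDR = 0.566, edgeR). With total counts alone it was -0.70 (FDR = 0.111, edgeR), which stayed short of the threshold.

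**Figure D3:**
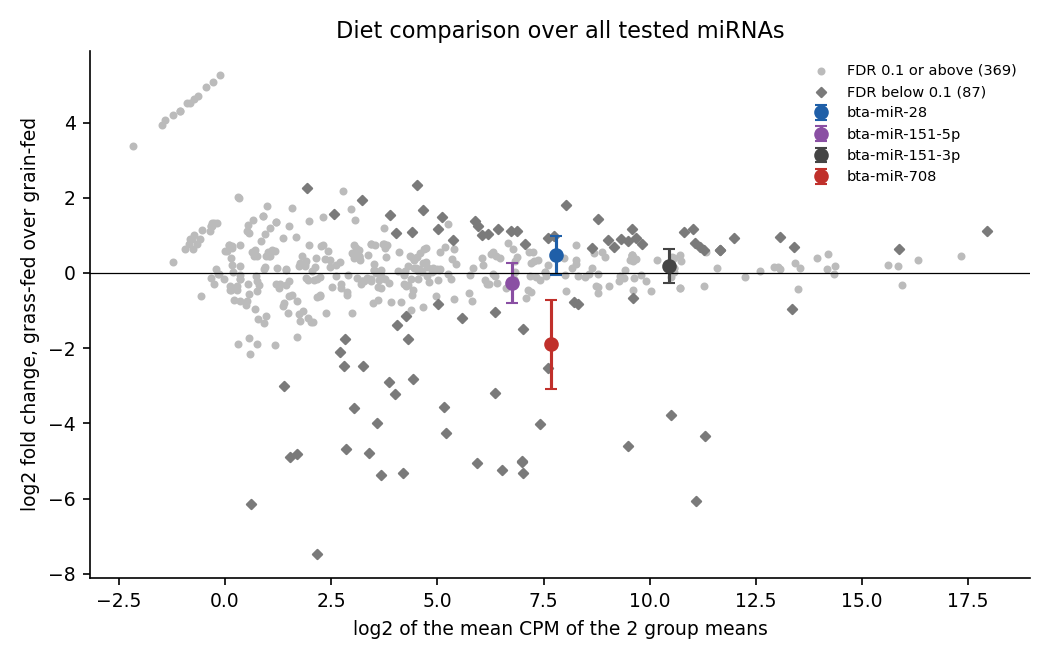
Log2 fold change of grass-fed over grain-fed liver against the log2 of the mean level in CPM for all 456 tested miRNAs, with the 87 at FDR below 0.1 as diamonds and the 4 miRNAs in colour with 95% intervals. bta-miR-708 at -1.90 has an interval below 0, those of the other 3 include 0, and the rising line of points at the upper left holds miRNAs without grain-fed counts, whose fitted values depend on the prior count.

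The 2 arms of the miR-151 hairpin are cut from 1 precursor, so their ratio within a library needs no scaling between libraries. The 3p arm took most of the counts everywhere. The 5p arm made up 5.60%, 6.78% and 6.23% of the counts of both arms in the grass-fed animals and 10.04%, 6.07% and 9.06% in the grain-fed animals. For grain-fed replicate 2, with 66 counts of the 5p arm, the 95% Wilson interval was 4.80% to 7.65%, and for grain-fed replicate 1, with 129 counts, it was 8.51% to 11.8%. These intervals cover counting error only, since amplified reads are not independent molecules, and do not show that the animals differ. The means were 6.20% ± 0.590 in grass-fed and 8.39% ± 2.07 in grain-fed liver (SD, n = 3 each), and the ranges overlapped. The log2 ratio of the arms was 0.45 lower in grass-fed liver on average (difference -0.45, two-sided exact permutation p = 0.3, the same after adjustment over the 6 pairs). Among 37 hairpins with both arms tested, paired by name, 28 had a larger difference between the diets than miR-151, the ranges of 32.4% did not overlap, and the 3p arm was read more often in 16. These pairs included arms with as few as 12 counts over all libraries, against 1544 for bta-miR-151-5p, so the depths compared were unlike. Some pairs also held the same counts as another pair.

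The order of the 4 miRNAs changed between the diets below bta-miR-151-3p. By counts within a library, bta-miR-708 came second in all 3 grain-fed libraries, followed by bta-miR-28 and bta-miR-151-5p. In all 3 grass-fed libraries bta-miR-28 came second, and bta-miR-708 came behind it in replicate 1 and last in replicates 2 and 3. In grass-fed liver bta-miR-151-5p and bta-miR-708 were neighbours whose levels did not differ beyond their spread, with 98.9 ± 14.4 and 86.5 ± 86.8 CPM. A read spans the whole mature miRNA, so these levels need no division by length, but ligation differs between sequences and the order is that of reads. Together the 4 made up 0.134% to 0.243% of the counts of a library.

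The 2 miRNAs that share a seed, bta-miR-708 and bta-miR-28, stood in opposite order to each other in the 2 diets. The count of bta-miR-708 was 0.620, 0.192 and 0.123 times that of bta-miR-28 in the grass-fed animals. In the grain-fed animals it was 1.69, 1.92 and 1.56 times that of bta-miR-28. The ratio was below 1 in 3 of 3 grass-fed and above 1 in 3 of 3 grain-fed libraries, and 28.6% of all other tested miRNAs also had a ratio to bta-miR-28 that did not overlap between the diets. The log2 ratio averaged -2.03 ± 1.204 in grass-fed and 0.78 ± 0.15 in grain-fed liver (SD, n = 3 each), a difference of -2.81 (two-sided exact permutation p = 0.1, adjusted 0.3 over 6 pairs).

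The difference between these 2 miRNAs was also tested across all miRNAs, with the bta-miR-28 count as the library size in edgeR. Relative to bta-miR-28, bta-miR-708 fell by 2.42 on the log2 scale in grass-fed liver, with a 95% interval from -3.54 to -1.31 (FDR = 0.00640, edgeR). Of the 455 miRNAs in this fit, 12.3% were called and 12.1% were called lower. The call held without each library in turn, with log2 values between -3.47 and -2.06. It did not hold with the members exchanged, when the bta-miR-708 count was the library size (-2.47, FDR = 0.334, edgeR), and in that fit, which carries the spread of bta-miR-708 into every miRNA, 3.08% of 455 were called, 0.22% lower, and the ranges of 63.1% did not overlap.

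Relative to the 2 arms of miR-151, bta-miR-708 was lower in grass-fed liver as well. Against bta-miR-151-3p its log2 ratio was -4.57 ± 1.24 in grass-fed and -2.05 ± 0.34 in grain-fed liver (SD, n = 3 each), and the ranges did not overlap, as for 28.4% of all other miRNAs. The edgeR fit with bta-miR-151-3p as the library size gave -2.15 with a 95% interval from -3.16 to -1.14 (FDR = 0.00518), where 14.1% of 455 miRNAs were called and 10.3% were called lower. Against bta-miR-151-5p the ranges overlapped, since grass-fed replicate 1 had 1.91 and grain-fed replicate 3 had 1.86 counts of bta-miR-708 per count of bta-miR-151-5p, while 35.8% of all other miRNAs did not overlap. That fit gave -1.69 with a 95% interval from -2.95 to -0.43 (FDR = 0.0665, edgeR), where 23.1% were called and 8.13% were called lower, and lost the call without any library but grass-fed replicate 1 or grain-fed replicate 3. With the members exchanged neither ratio was called (FDR = 0.175 for bta-miR-151-3p and 0.612 for bta-miR-151-5p, edgeR).

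The 3 ratios without bta-miR-708 did not pass FDR 0.1. bta-miR-151-3p relative to bta-miR-28 gave -0.27 with a 95% interval from -0.95 to 0.42 (FDR = 0.710, edgeR). bta-miR-151-5p relative to bta-miR-28 gave -0.72 with a 95% interval from -1.55 to 0.11 (FDR = 0.345, edgeR), and passed without grass-fed replicate 2 (-1.002, FDR = 0.0494, edgeR). bta-miR-151-5p relative to bta-miR-151-3p gave -0.48 with a 95% interval from -1.08 to 0.12 (FDR = 0.343, edgeR). These intervals do not show that the 3 act alike, since each includes differences of more than 0.9 on the log2 scale.

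**Figure D4:**
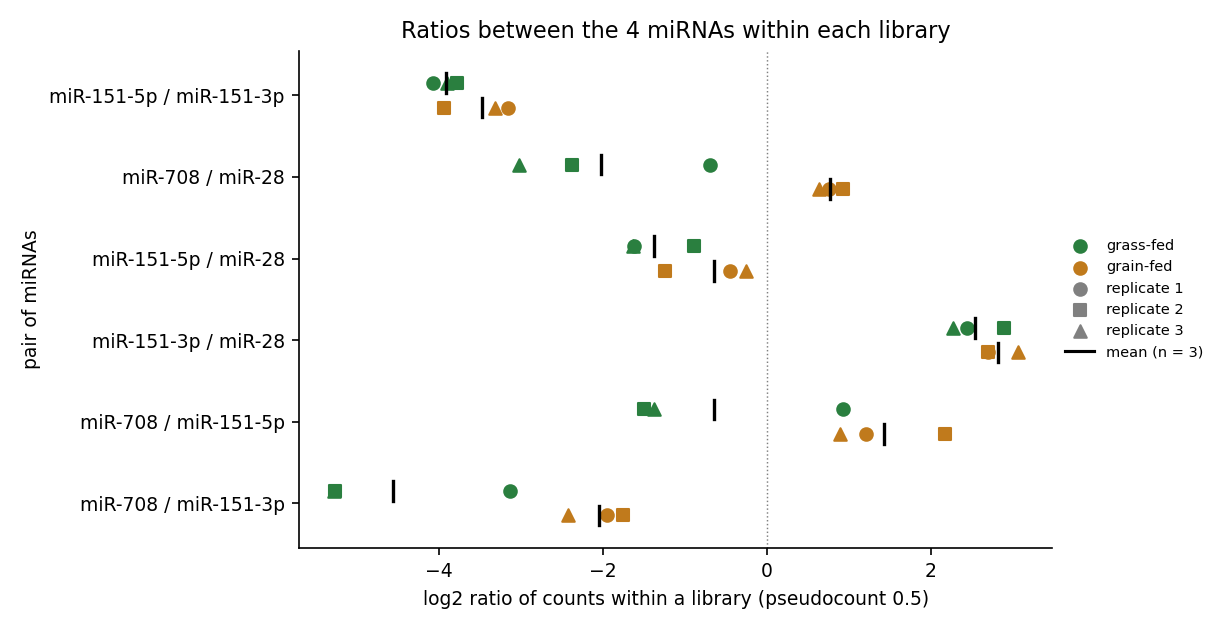
Log2 ratio of the counts of 2 miRNAs within each library for the 6 pairs, with 1 point per library, grass-fed in green above grain-fed in orange, and a bar at the mean of 3 libraries. The grass-fed points of bta-miR-708 over bta-miR-28 lie below 0 and the grain-fed points above 0, with means of -2.03 and 0.78, and the pairs without bta-miR-708 overlap.

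The 4 miRNAs did not share a pattern over the libraries. Diet, age and depth split the 6 libraries in the same way, and correlations over them can carry that split. Pearson's r of log2 CPM was 0.52 between bta-miR-28 and bta-miR-151-3p. It was -0.86 between bta-miR-28 and bta-miR-151-5p and -0.37 between bta-miR-28 and bta-miR-708. The 2 arms of miR-151 gave r = -0.22 over the same 6 libraries. Other miRNAs were closer. The pattern most like that of bta-miR-28 was that of bta-miR-24-3p (r = 0.97), followed by bta-miR-27a-5p (r = 0.95) and bta-miR-27b (r = 0.89). bta-miR-151-3p was most like bta-miR-126-5p, of the endothelium (r = 0.98), then bta-miR-17-3p (r = 0.91) and bta-miR-378 (r = 0.88). bta-miR-151-5p was most like bta-miR-92b (r = 0.92), bta-miR-378d (r = 0.86) and bta-miR-490 (r = 0.82). bta-miR-708 was most like bta-miR-27a-3p (r = 0.96), bta-miR-146a (r = 0.91) and bta-miR-425-5p (r = 0.90), whose log2 fold changes of -0.34, -0.67 and -0.45 were smaller than that of bta-miR-708. These were the closest of 313 miRNAs over 6 libraries and are descriptions.

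A list of 52 other miRNAs known in mammals from introns of protein-coding genes gives a background for the family. All 52 matched a miRNA gene in RefSeq's table, and 49 lay inside a protein-coding gene there by at least 1 precursor. The 3 that did not were bta-miR-191, bta-miR-425-5p and bta-miR-425-3p, named after their values were seen, and bta-miR-191 is 1 of the 7 counted below as higher. Of the 52, 49 were tested, 7 rose and 1 fell in grass-fed liver, so that 16.3% were called against 19.1% of all tested miRNAs. Their median log2 fold change was 0.23, against 0.13 over all tested miRNAs. With total counts alone the direction turned, with 1 called higher and 5 called lower and a median of -0.20. The 1 that fell was bta-miR-26b, held by a phosphatase gene of the CTDSP family, with a grass-fed mean of 7136 ± 1859 and a grain-fed mean of 13763 ± 3683 CPM (SD, n = 3 each), a difference of -0.95 on the log2 scale (FDR = 0.0234, edgeR). The largest of the 7 increases was that of bta-miR-128, with 409 ± 153 and 116 ± 41.9 CPM (SD, n = 3 each). The log2 fold change of bta-miR-708 was below that of bta-miR-26b, and those of bta-miR-28 and both arms of miR-151 lay between the values of bta-miR-26b and bta-miR-128.

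Other ways to process the counts changed which of the 4 were called only through single libraries. bta-miR-708 was called under every scaling, filter and tool tried with all 6 libraries, with log2 fold changes from -2.33 to -1.72. The other 3 were called under none of them, the closest being bta-miR-28 with upper-quartile normalization (0.67, FDR = 0.102, edgeR).

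**Figure D5:**
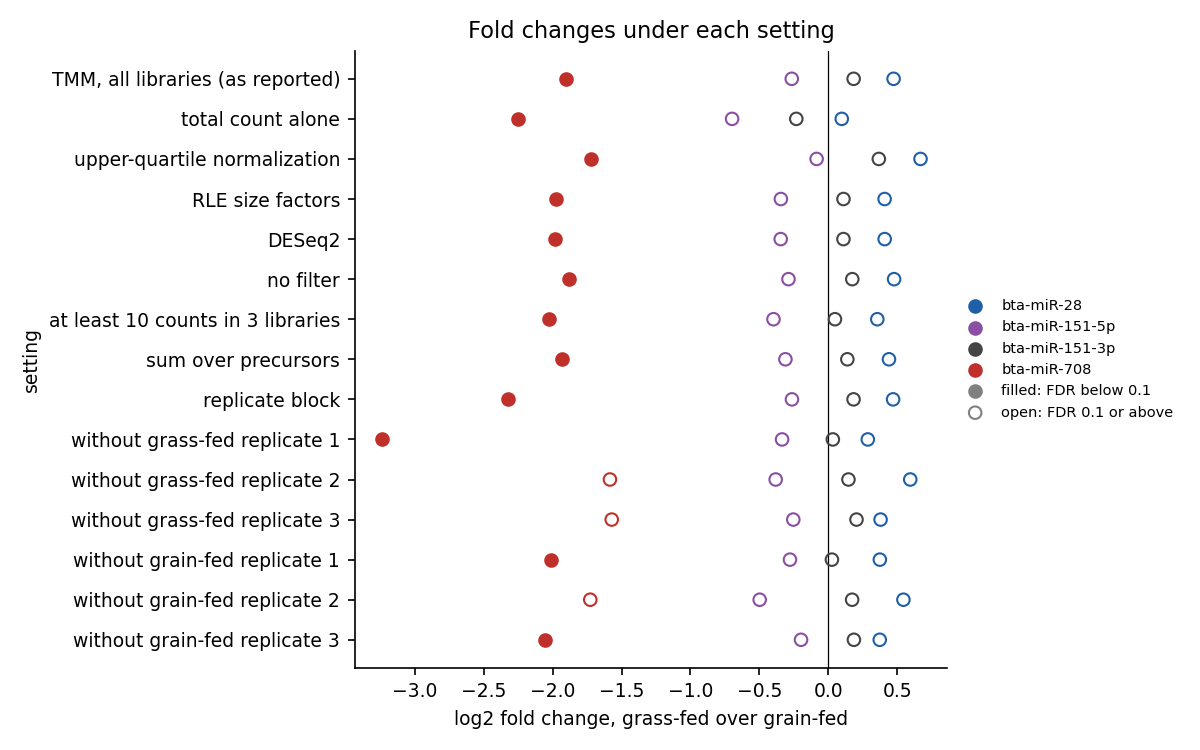
Log2 fold change of grass-fed over grain-fed liver for the 4 miRNAs under each setting, filled where FDR was below 0.1 and open otherwise. bta-miR-708 lies between -3.24 and -1.57 and is open in 3 settings that leave out 1 library, and the other 3 miRNAs are open in every setting.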

How the data were processed

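Small RNA of 6 livers was sequenced, 1 library per animal, in groups taken from the sample titles. The authors trimmed and filtered reads (FastQC 0.11.5 and Trimmomatic 0.36 in the submitters' processing notes), kept reads of 17 to 25 nt, used ARS-UCD1.2 as the genome and quantified miRBase miRNAs with miRDeep2, of a version not given in the sources used here. Deposited values are whole raw counts for each mature miRNA with each of its precursors. A deposited CPM column, relative to the library's sum over these rows, was left aside. The largest count over precursor rows was taken. Counts were scaled by TMM and tested with edgeR 4.0.16 (R 4.3.3, newer quasi-likelihood fit), FDR 0.1. The code was tested on simulated data with the same spread for every miRNA, which do not test the scaling or the uneven spread of these libraries. Standard errors are the log2 fold change over the square root of F, and intervals are 95%. The log2 CPM used a prior count of 2 and ratios a pseudocount of 0.5. Alternatives were DESeq2 1.42.0, other scalings, filters and precursor sums, a replicate block and leaving out libraries. Exchanged ratios and their left-out libraries were chosen after the data were seen.

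The miRNAs, the lists and tests were chosen with earlier results of these data known. The named miRNAs are the 4, the 3 tested miRNAs with mean count of at least 10 most correlated with each, and list members. These lists are 52 intronic miRNAs and cell type markers from general knowledge. At most 2 of each list were planned. More were named from the intronic list and, with bta-miR-155, from the leukocyte list, after their values were seen. Matching by seed was not done, since mature sequences were not used here.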

Additional observations from a re-analysis of the deposited data

How the results depend on the processing

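Of the 4 miRNAs 1 was called, and 0 to 1 with each library left out in turn. The number of DEmiRNAs was 87, and 49 to 86 with each library left out, 49 being without grain-fed replicate 2. For bta-miR-708 the log2 fold change ran from -3.24 to -1.57 on leaving out 1 library, and 3 of the 6 such fits lost the call. That of bta-miR-151-3p reversed to -0.23 with total counts alone. At FDR 0.05 bta-miR-708 was still called with TMM and all 6 libraries. It was not called at 0.05 with upper-quartile normalization (FDR = 0.0857, edgeR), without a filter (FDR = 0.0578) or with precursor sums (FDR = 0.0650). The other settings with all 6 libraries stayed below 0.05. Of the fits without 1 library, only that without grass-fed replicate 1 did. All 6 pair ratios kept their direction with a pseudocount of 2, with precursor sums and without each library. No label pairs the animals by replicate number. Deviations from the diet mean gave r = -0.11, -0.32 and -0.04 between same-numbered libraries and -0.27 to 0.31 between differently numbered ones. With so few libraries these values cannot decide whether animals were paired. With the replicate block, given only as an alternative, 82 DEmiRNAs were called and bta-miR-708 had a log2 fold change of -2.33 (FDR = 3.19e-06, edgeR). Depth limits the grain-fed values most, with 66 counts behind the smallest.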

Other observations

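The cell type lists that give the setting of the 4 miRNAs moved unevenly. In edgeR at FDR 0.1 the hepatocyte list had 2 of 4 higher in grass-fed liver, the mesenchymal list 3 of 5 higher, the biliary list 1 higher and 1 lower of 5, the leukocyte list 2 of 7 lower and the pancreas list 3 of 4 lower. The erythroid list (3 tested), the endothelial list (2 tested) and the skeletal muscle list (2 tested) had 0 called, where 19.1% of all tested miRNAs were called, 9.65% lower and 9.43% higher. The pancreas calls rest on grain-fed replicates 1 and 2, since the 3 called miRNAs were all at 0 in grain-fed replicate 3, whose sum over the list, 14.2 CPM, lay below all 3 grass-fed sums, the lowest of which was 32.3 CPM. The summed level of the endothelial list, which holds miR-126, was 16152, 11449 and 12397 CPM in the grass-fed animals and 9476, 12602 and 14335 CPM in the grain-fed animals, and these ranges overlapped. With total counts alone the median log2 fold change turned from above to below 0 for the endothelial (0.23 to -0.17), biliary (0.14 to -0.33) and skeletal muscle lists (0.42 to -0.02), the hepatocyte and mesenchymal lists had 1 higher call each, the biliary and erythroid lists had 1 lower call each, and the leukocyte list had 4 of 7 lower.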
